A study of Rattus norvegicus with 5 samples.

Results

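The single-nuclei RNA sequencing (snRNA-seq) libraries of this study hold, beside the nuclei, RNA that was counted under barcodes not taken for nuclei. Here the transcripts of these 2 sources were compared within each of the 5 libraries. The unit of comparison was the library: all 5 of the 5 libraries of the series entered, each with 1 sum of counts from barcodes of 1 to 99 unique molecular identifiers (UMIs), called low-UMI barcodes below, and 1 sum from nuclei, defined as barcodes of at least 1000 UMIs with 201 to 4999 genes and less than 5% of UMIs from the genes named Mt-. These criteria took 3635894 low-UMI barcodes and 22084 nuclei out of 3921122 barcodes with at least 1 UMI. The tissue was the ventral tegmental area (VTA) of adult male Sprague-Dawley rats, flash-frozen, with punches of both hemispheres pooled into 1 sample per rat. The study calls these rats drug-naive, whereas the sample labels give the treatment of every library as saline and the tissue only as brain, and there was no second condition. UMIs count captured molecules, so that amplified copies of a molecule count once.

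In droplet assays each bead barcode tags the RNA of its droplet, and RNA released from broken cells during homogenization is tagged in droplets with and without a nucleus. Messenger RNAs of ribosomal proteins, metabolic enzymes and the mitochondrial genome are found mostly in the cytoplasm. Nuclei hold newly made and unspliced transcripts, and a long gene takes longer to transcribe and carries more intron sequence. Whether reads from introns were counted is not given in the sources used here.

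The range of 1 to 99 UMIs did not hold the same kind of barcode in every library. In bins of 0.25 log2 units from 5 to under 1000 UMIs, the bin with the most barcodes was centred on 13, 494, 26, 207 and 247 UMIs in libraries 1 to 5. With bins of the same width started at 1 UMI, the fullest bin within that range held totals of 8 to 9, 512 to 608, 16 to 19, 216 to 255 and 216 to 255 UMIs. This peak, the usual place of droplets that held free RNA alone, was within the range of 1 to 99 UMIs in libraries 1 and 3 and above it in libraries 2, 4 and 5. Library 1 also had a smaller second peak, outside that range, with 2397 barcodes in the bin below 512 UMIs and 2080 in the bin from 512 UMIs. In the low-UMI range, 61.5 to 84.9% of the barcodes held 1 UMI. A second class, the empty-droplet peak, was therefore defined after the totals had been seen, from the first of these centres divided by 1.5 to the same centre multiplied by 1.5. The plot of barcodes by UMI total shows both ranges.

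**Figure D1:**
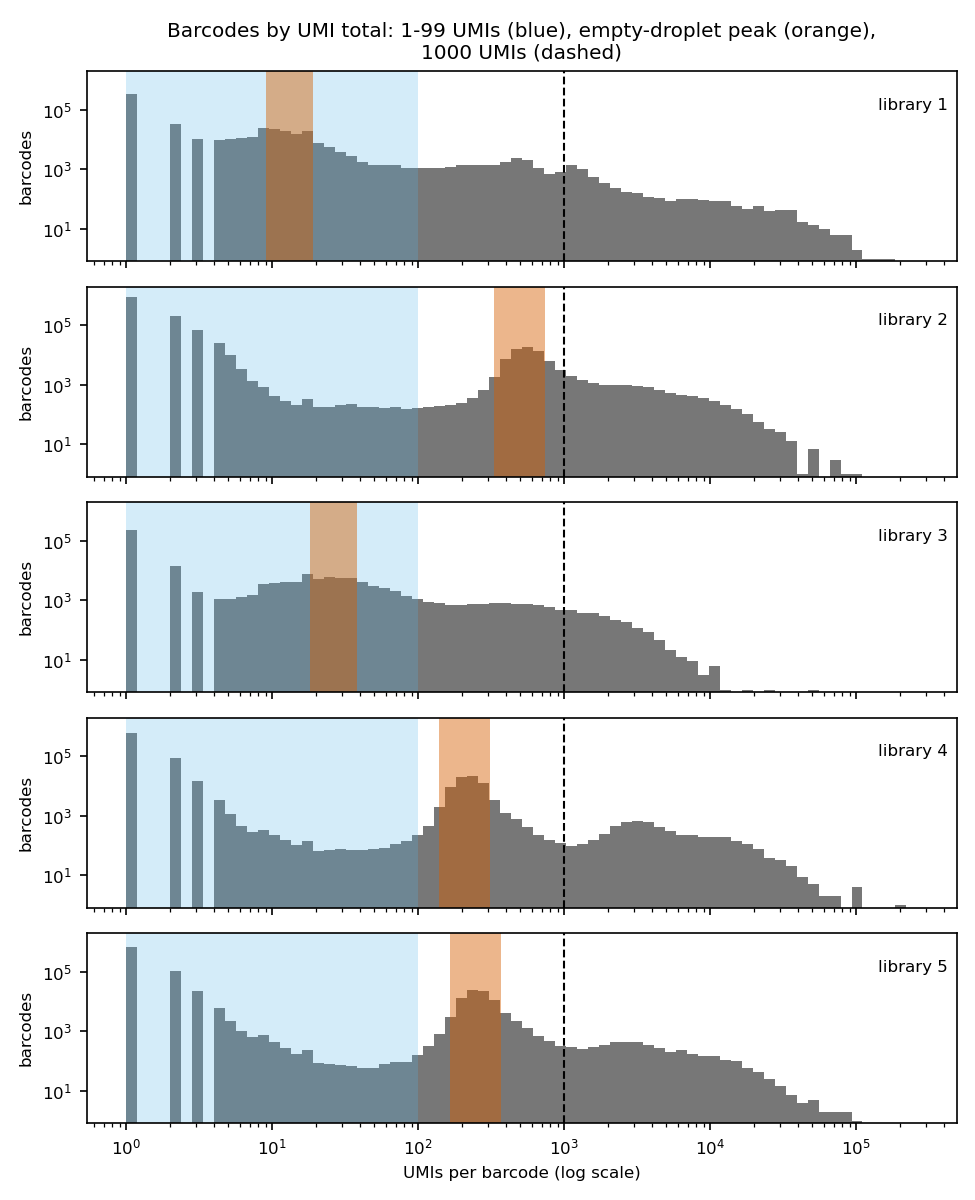
Number of barcodes (log scale) against UMIs per barcode (log scale) in each of the 5 libraries, in bins of 0.25 log2 units; blue marks 1 to 99 UMIs, orange the empty-droplet peak and the dashed line 1000 UMIs. The orange range lies inside the blue one in libraries 1 and 3, and to its right in libraries 2, 4 and 5, where it centres on 494, 207 and 247 UMIs.

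The low-UMI barcodes held 2919595, 1802227, 2046702, 921088 and 1065281 UMIs in libraries 1 to 5, or 1.88 to 20.1% of a library's UMIs, and the nuclei 7236775, 35525254, 4461963, 22807949 and 15996038 UMIs. The empty-droplet peak held 1151723, 30999070, 695726, 14723718 and 19110439 UMIs. Libraries 1 and 3 stood apart. In library 1, 3117 of 4930 barcodes of nuclear size were removed by the limit on Mt- genes, against 0.782 to 27.3% in the others. In library 3, 6 clusters of nuclei described below occurred in no other library. Between 0 and 16 nuclei barcodes were shared by a pair of libraries, whereas 14.0 to 30.2% of the low-UMI barcodes of the smaller library of a pair were found again in the other. Sums of a library cannot tell a lower number of cells of a type from less RNA per cell, and no doublets were removed.

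Of 12872 genes tested, 3918 (30.4%) were higher in low-UMI barcodes and 3939 (30.6%) higher in nuclei at an edgeR quasi-likelihood adjusted p under 0.05, with each library as a block. With a difference of at least 2-fold required as well, 2895 (22.5%) were higher in low-UMI barcodes and 2236 (17.4%) in nuclei. For the empty-droplet peak, 5163 (33.6%) and 5485 (35.7%) of 15345 genes were called, and 4167 (27.2%) and 4421 (28.8%) at 2-fold or more. Among the genes tested in both, the peak shared 3784 of the 3918 calls higher outside nuclei (96.6% of them, and 84.7% of the peak's calls) and 3657 of the 3939 higher in nuclei (92.8% and 79.4%), and 2 genes were called in opposite directions. Both comparisons use the same nuclei, and in libraries 1 and 3 every barcode of the peak is also a low-UMI barcode. The shared calls are therefore not independent. Set against each other, with these barcodes left in both sums, 1535 of 11243 genes (13.7%) were higher in low-UMI barcodes and 767 (6.82%) in the peak. Sums that share barcodes differ less, so that these counts may be too low. These counts depend on scaling. With library totals in place of TMM factors, the median log2 ratio over genes changed by -0.17. Then 3390 genes were higher in low-UMI barcodes and 4557 in nuclei, 42.7% of calls outside nuclei against 49.9%. For the peak the median changed by -0.30, with 4120 and 6292 calls. At 2-fold or more, the share of calls outside nuclei went from 56.4% to 44.45% for low-UMI barcodes. All log2 ratios below are low-UMI barcodes or peak over nuclei on the TMM scale, where the median gene was at -0.05 and -0.06. Every count of list members below stands against these shares of all genes tested, 30.4% higher outside nuclei and 30.6% higher in nuclei for low-UMI barcodes, and 33.6% and 35.7% for the peak. Leaving out library 3 gave 4380 and 4336 genes, and at 2-fold 2815 and 1883.

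The ratios were ordered by the span of a gene in the RefSeq annotation. A span was found for 92.4% of the genes tested, by name, in the GRCr8 assembly, which may not be the build of the files, so that only the length class of a gene was used. The median log2 ratio was 1.71 for 1110 genes under 5 kb and 1.15 for 1330 genes of 5 to 10 kb. It was 0.49 at 10 to 20 kb, -0.07 at 20 to 50 kb, -0.63 at 50 to 100 kb and -0.88 at 100 to 200 kb. It was -1.09 for 687 genes of 200 to 500 kb and -1.24 for 189 genes of 500 kb or more. In the shortest class 83.5% of genes were called higher in low-UMI barcodes and 0.631% higher in nuclei, and in the longest class 1.06% and 86.2%. The same order was found in the empty-droplet peak, from 1.88 to -1.82. Each library went from a positive median in the shortest class to a negative median in the longest, least steeply in library 1 (0.99 to -0.73) and most steeply in library 3 (2.38 to -1.79). In library 1 the longest class did not continue the fall, with -0.86 at 200 to 500 kb before it. The lists below differ in span, and were not set against genes of like length except where a length class is given.

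**Figure D2:**
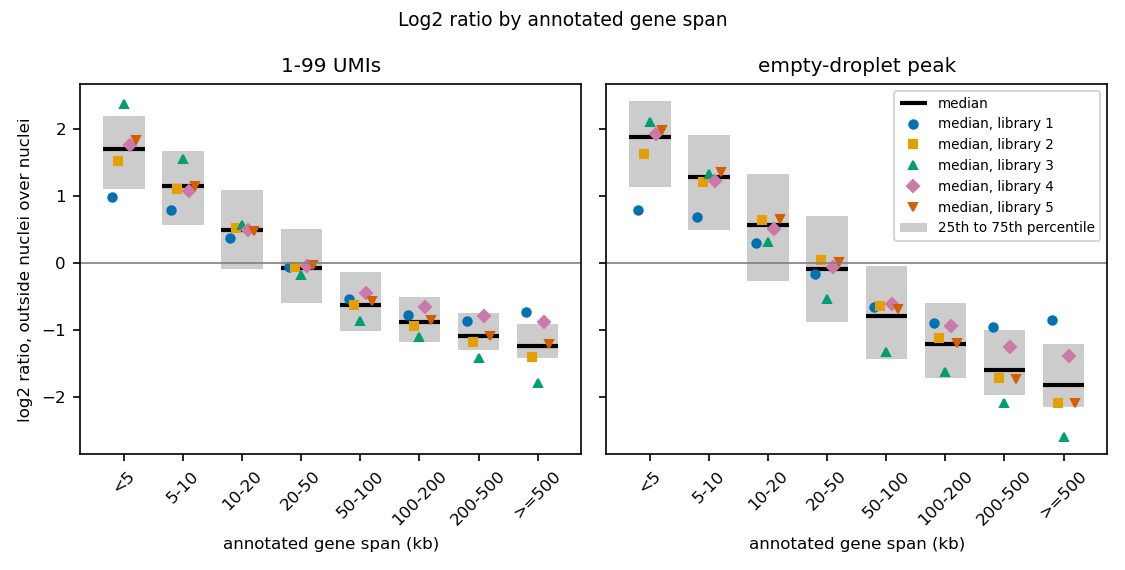
Log2 ratio of RNA outside nuclei over nuclei by annotated gene span in kb, for low-UMI barcodes (left) and the empty-droplet peak (right); black lines are medians over genes of the fit over 5 libraries, grey bars the 25th to 75th percentile, and symbols the medians of single libraries. Medians fall from 1.71 to -1.24 on the left and from 1.88 to -1.82 on the right.

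The genes of the mitochondrial genome had the largest median difference of all lists in low-UMI barcodes, but nuclei were chosen with less than 5% of UMIs from them, so that these values are descriptions. Mt- genes took 4.0, 9.77, 9.81, 5.18 and 9.88% of the UMIs of low-UMI barcodes in libraries 1 to 5, and 1.74, 1.43, 0.441, 0.284 and 0.791% of those of nuclei. In the empty-droplet peak they took 3.09, 5.30, 10.9, 3.15 and 5.64%. Every value outside nuclei was above every value of nuclei. Among the 13 genes, the median log2 ratio was 3.46 in low-UMI barcodes and 2.98 in the peak. *Mt-atp6*, a subunit of ATP synthase, had the largest at 3.71, and *Mt-nd4l*, of complex I, the smallest at 2.14. Without the limit on Mt- genes, barcodes of nuclear size held 4.41, 2.24, 0.484, 0.316 and 1.13%, so that library 1 was higher in nuclei (4.0% against 4.41%) and the other 4 lower. The mean difference was then 6.01 percentage points (SD 3.985, n = 5 libraries). An exact permutation test that swapped the signs of the 5 differences, two-sided, gave p = 0.125, and the smallest p it allows is 0.063.

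A second set of transcripts named after the GenBank record of the rat mitochondrial genome, AY172581.1 to AY172581.24, is not named Mt- and entered neither that share nor the limit on nuclei by name. It was listed after these values were seen. Together these genes took 2.63, 1.85, 1.78, 1.0 and 2.09% of the UMIs of low-UMI barcodes, and 1.51, 0.725, 0.06674, 0.271 and 0.498% of those of nuclei. In each library the share was higher in low-UMI barcodes, although the ranges overlapped. Without the limit on Mt- genes, barcodes of nuclear size of library 1 held 3.38%, more than its low-UMI barcodes. AY172581.24 had 21804, 12389.7, 13395, 6716 and 12865 CPM (counts scaled to a total of 1000000 in each sum) in low-UMI barcodes and 12070.2, 5718, 519, 2218 and 3626 CPM in nuclei (log2 ratio 2.08). The other abundant gene of the set, AY172581.9, had a log2 ratio of 2.73. Of the 24 members, 12 passed the filter on low counts, with a median log2 ratio of 2.06. As these are transcripts of the genome whose Mt- genes limited the nuclei, and were listed with their values in view, all of these values are descriptions.

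Ribosomal proteins, the structural proteins of the cytosolic ribosome, were the next group. Of 79 names listed, 75 were in the files on 83 rows, and all 71 rows that passed the filter were higher in low-UMI barcodes by 2-fold or more, with a median log2 ratio of 2.65 beside -0.05 for all genes tested. In the empty-droplet peak 72 of 73 were higher outside nuclei and 1 was lower, with a median of 2.92. The list had a median span of 3.13 kb. Of all genes under 5 kb, 83.5% were higher in low-UMI barcodes, with a median log2 ratio of 1.71. *Rpl41* had 893, 2354, 841, 838 and 1532 CPM in low-UMI barcodes and 395, 583, 45.5, 96.4 and 218 CPM in nuclei of libraries 1 to 5. Its lowest low-UMI value, in library 4, was above its highest value in nuclei, in library 2, and the log2 ratio was 2.84, or 7.17-fold (SE 0.44; edgeR adjusted p = 0.000563). *Rpl19* differed by 2.66 on the log2 scale. *Rpl18*, *Rpl11* and *Rps27a*, with log2 ratios of 3.02, 3.0 and 3.01, were among the 12 genes with the largest ratios by the naming rule given below. That rule leaves out Mt- genes and names that are only identifiers, and needs 50 CPM and the same sign in every library. Several ribosomal protein genes have near-identical copies, and such rows are uncertain. The smallest ratio, 1.38, was that of 1 of the 2 rows named *Rps10*, not called without the block, with barcodes of 10 to 99 UMIs or without the limit on Mt- genes, and the other row was at 2.78. By library, the median ratio of the group was 0.89, 2.13, 3.94, 2.99 and 3.07, lowest in library 1 and highest in library 3.

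Transcripts for proteins that work with the ribosome or in energy metabolism had the same direction. Of 22 translation factors tested, 19 were higher in low-UMI barcodes, none was higher in nuclei and 3 did not pass, with a median of 1.68 (peak 2.0). *Tpt1*, a translation-associated tumour protein, was highest in log2 ratio at 2.66, and *Eif4e*, the cap-binding protein, lowest at 0.27 (edgeR adjusted p = 0.17). Of 76 rows of nuclear-encoded subunits of the respiratory chain, 70 were higher in low-UMI barcodes, none in nuclei and 6 were not called, with a median of 2.40 (peak 72 of 77 higher and 1 lower, median 2.65). *Cox4i1*, of cytochrome c oxidase, had 1219, 1952, 692, 977 and 1708 CPM in low-UMI barcodes and 452, 508, 63, 116 and 265 CPM in nuclei, with no overlap (log2 ratio 2.70, SE 0.35; edgeR adjusted p = 0.000301). *Atp5f1e*, of ATP synthase, differed by 2.96, and *Timm8b*, an import chaperone of mitochondria outside the list, by 2.95. *Atp5pb* was the lowest at -1.04 and did not pass (edgeR adjusted p = 0.0969). Of 14 glycolytic enzymes, 12 were higher in low-UMI barcodes with a median of 2.22 (peak 12 of 15). Among them *Aldoa* was at 2.66, and *Pfkp*, which did not pass, at -0.23.

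Further abundant cytosolic transcripts were also higher outside nuclei. All 22 genes of the cytoskeleton and calmodulin list that passed the filter were higher in low-UMI barcodes (median 2.08; peak 2.52), from 0.94 for *Stmn4* to 2.75 for the tubulin *Tubb4b*. *Stmn4* lost the call without library 2 or 5 (edgeR adjusted p = 0.0608 and 0.0593) and without the block. Of 18 genes of iron storage, antioxidant defence and ubiquitin, 17 were higher and 1 was not called (median 2.61; peak 2.86). *Fth1*, the heavy chain of ferritin, had 2647, 7465, 1965, 3068 and 6385 CPM in low-UMI barcodes and 1087, 1799, 64.3, 353 and 958 CPM in nuclei, the lowest low-UMI value being above the highest value of nuclei (log2 ratio 2.97; edgeR adjusted p = 0.00115). *Mt3*, a brain metallothionein, was at 3.18 and *Cst6*, a cystatin protease inhibitor, at 3.01. *Tmsb15b2*, a thymosin outside the lists, was at 2.96. *Mt2A*, another metallothionein, was at 4.95 (SE 0.97), from 3.898 without library 5 to 5.993 without library 2. It had 5.14, 12.8, 24.4, 73.8 and 213 CPM in low-UMI barcodes, with libraries 4 and 5 far above the rest, but 5.21, 15, 24.4, 4.82 and 8.79 CPM in the empty-droplet peak, where the log2 ratio was 3.03. *Selenop*, a selenium carrier, was the only member not called, at -0.09, and without library 3 it was higher in nuclei (edgeR adjusted p = 0.00836). Of 14 chaperones, 12 were higher (median 1.68), led by *Hsp90aa1* at 2.42, and mitochondrial *Hspa9* was not called at -0.30.

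**Figure D3:**
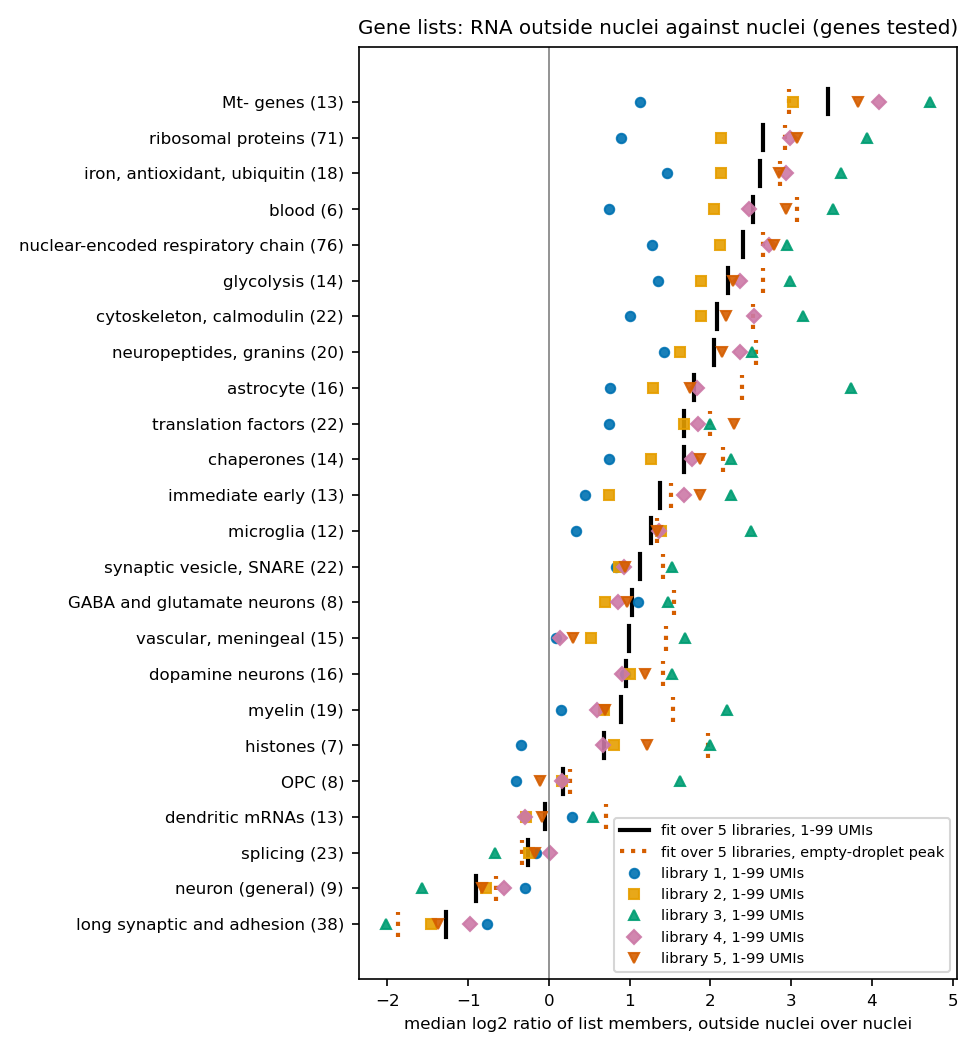
Median log2 ratio of the members of each gene list, RNA outside nuclei over nuclei, with the number of genes tested in brackets; symbols are single libraries for low-UMI barcodes, black bars the fit over 5 libraries and orange dotted bars the fit for the empty-droplet peak. Ribosomal proteins lie at 2.65, the dendritic list at -0.04 with libraries on both sides of 0, and the long synaptic and adhesion genes at -1.28.

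Neuronal transcripts went in both directions. Of 20 neuropeptide and granin genes that passed the filter, of 29 listed, all were higher in low-UMI barcodes (median 2.04; peak 24 of 24, median 2.56). *Cck*, the peptide cholecystokinin of many VTA dopamine neurons, had 410.3, 724, 178, 334 and 624 CPM in low-UMI barcodes and 131, 193, 10.1, 36.8 and 94.5 CPM in nuclei, and was higher outside nuclei in each of the 5 libraries but with overlapping ranges (log2 ratio 2.86; edgeR adjusted p = 0.000294). The granins *Chgb* and *Scg2*, cargo of dense-core vesicles, differed by 1.94 and 1.53, and *Adcyap1*, the peptide PACAP, by the least at 1.14. Of 22 synaptic vesicle and SNARE genes, 15 were higher outside nuclei, 2 were lower and 5 were not called, beside 30.4% and 30.6% of all genes (median 1.12; peak 15 higher and 2 lower of 22). *Rab3a*, a small GTPase of vesicles, was at 2.44, whereas its relative *Rab3c* was at -1.32, both past the threshold (edgeR adjusted p = 0.000297 and 0.000393). The vesicle protein *Sv2c* was the other lower member, at -0.87, and lost that call without library 2, 4 or 5 or without the limit on Mt- genes. *Snap25*, which docks vesicles, was at 0.93, and lost the call without that limit. *Syt1*, a calcium sensor, was at -0.58 and did not pass (edgeR adjusted p = 0.0958), but was higher in nuclei without library 1 (edgeR adjusted p = 0.0299).

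Transcripts known to be carried into dendrites were divided, with 6 of 13 higher in low-UMI barcodes, 5 higher in nuclei and 2 not called, beside 30.4% and 30.6% of all genes tested (median -0.04). In the peak 8 of 15 were higher outside and 5 in nuclei, with a median of 0.71. Without library 2 or 4, 2 members were higher in nuclei, and the median was 0.08 in both cases; without library 5 there were 3, and without library 3 the median was -0.16. The postsynaptic calmodulin-binding protein *Nrgn* had 297, 482, 346, 391 and 314 CPM in low-UMI barcodes and 98.9, 136, 32.7, 35.7 and 52.1 CPM in nuclei, with no overlap (log2 ratio 2.75; edgeR adjusted p = 0.000257). The kinesin *Kif5a* was higher outside nuclei too, at 1.06. *Camk2a*, a kinase, at -1.13, and *Homer1*, a scaffold, at -1.21, were higher in nuclei (edgeR adjusted p = 0.0125 and 0.00244). The other 3 members called higher in nuclei, *Itpr1* at -0.62, *Shank3* at -0.67 and *Eef2k* at -0.52, each lost the call when a single library was left out (largest edgeR adjusted p 0.0873, 0.13 and 0.186). *Map2* was near 0 at -0.05.

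Of 16 markers of dopamine neurons, 11 were higher outside nuclei, 2 lower and 3 not called, beside 30.4% and 30.6% of all genes (median 0.96; peak 14 of 17 higher, median 1.42). *Th*, the rate-limiting enzyme of dopamine synthesis, had 521, 910, 919, 467 and 546 CPM in low-UMI barcodes, 516, 1003, 982, 708 and 817 CPM in the empty-droplet peak and 213, 341, 157, 88.6 and 152 CPM in nuclei of libraries 1 to 5. Its lowest value outside nuclei, in library 4, was above its highest value in nuclei, in library 2, and the log2 ratio was 2.08, or 4.23-fold (SE 0.27; edgeR adjusted p = 0.000294) in low-UMI barcodes and 2.44 in the peak. The dopamine transporter *Slc6a3* differed by 1.86 and the decarboxylase *Ddc* by 0.73, *Ddc* losing the call without the block or with library totals. The members called higher in nuclei were the transcription factors *Sox6* at -1.54 (edgeR adjusted p = 0.000276) and *Lmx1b* at -0.94, the latter not without library 2, 3 or 4, nor without the block, with barcodes of 1 to 9 or 10 to 99 UMIs, without the limit on Mt- genes or with sums thinned to equal totals.

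GABA and glutamate neurons had 6 of 8 markers higher in low-UMI barcodes, none lower and 2 not called (median 1.03; peak 7 of 8, median 1.55). *Gad1*, a GABA-synthesizing enzyme, had 233, 176, 237, 63 and 134 CPM in low-UMI barcodes, 345, 223, 259, 127 and 201 CPM in the peak and 92.3, 125, 105, 42.4 and 101 CPM in nuclei. It was higher outside nuclei in each library, although the ranges overlapped, with library 4 lowest in all 3 (log2 ratio 0.99, SE 0.19; edgeR adjusted p = 0.00182; peak 1.57, edgeR adjusted p = 0.000334). The vesicular GABA transporter *Slc32a1* differed by 2.19 and the other synthesizing enzyme, *Gad2*, by 0.78, the latter not called without the limit on Mt- genes. The glutamate marker *Slc17a8* was not called, and its log2 ratio ran from -0.51 to 0.12 as single libraries were left out. *Glp1r*, the receptor this study followed, did not pass the filter on low counts. It had 2.40, 2.22, 0, 1.09 and 3.75 CPM in low-UMI barcodes and 1.66, 1.69, 2.24, 1.14 and 1.88 CPM in nuclei, from 7, 4, 0, 1 and 4 and 12, 60, 10, 26 and 30 UMIs. In the peak its log2 ratio was 0.35 (SE 0.33; edgeR adjusted p = 0.36) and it was not called. Of 4 serotonin markers tested, 2 were higher, beside 30.4% of all genes, and in the peak 6 of 6, beside 33.6%. The transporter *Slc6a4* was at 1.38 (not called with barcodes of 10 to 99 UMIs), and *Tph2*, which makes serotonin, was at 0.73 (edgeR adjusted p = 0.0696) and in the peak at 1.45 (edgeR adjusted p = 0.0166). *Tph2* was called in low-UMI barcodes too without library 3 (edgeR adjusted p = 0.000314), and 1 of the 4 markers was called without library 2 or 4. Serotonin neurons are typical of the raphe nuclei caudal to the VTA.

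Among the glial lists, astrocyte markers had the largest median ratio. Of 16 astrocyte markers, 14 were higher in low-UMI barcodes, none lower and 2 not called (median 1.795; peak 2.39). *Apoe*, a lipid carrier, had 3862, 7358, 1803, 1672 and 4585 CPM in low-UMI barcodes and 1450.1, 2465, 81.4, 251 and 1022 CPM in nuclei, higher outside nuclei in each library but with overlapping ranges (log2 ratio 2.60; edgeR adjusted p = 0.00132). The protease inhibitor *Cst3* was at 2.74 and the calcium-binding *S100b* at 2.02, which lost the call without the limit on Mt- genes. *Slc1a2*, the main glutamate transporter, was not called at -0.31, its ratio being positive in library 3 and negative in the other 4. Without library 3 it was higher in nuclei at -0.86 (edgeR adjusted p = 0.00066), and 2 astrocyte markers were. Of 19 myelin genes, 9 were higher outside nuclei, 2 higher in nuclei and 8 not called, beside 30.4% and 30.6% of all genes tested (median 0.90; peak 1.53). Without library 2 or 5, 6 of 19 were higher outside, and without library 3 it was 11, with 3 in nuclei and a median of 0.54. *Cnp*, an enzyme of myelin, differed by 1.90 without overlap. *Mbp*, a major myelin protein, had 9896, 9487, 9349, 5236 and 6071 CPM in low-UMI barcodes and 5289, 4980.2, 1473, 4078 and 3600.3 CPM in nuclei, and its log2 ratio of 1.28 (edgeR adjusted p = 0.0256) did not hold the call without library 2 or 5 (edgeR adjusted p = 0.0716 and 0.0795), with barcodes of 10 to 99 UMIs or without the limit on Mt- genes. *Aspa*, an acetylaspartate-degrading enzyme, at -0.78, and *Enpp2*, the lysophospholipase autotaxin, at -0.90, were higher in nuclei, *Aspa* not without the block and *Enpp2* not with barcodes of 10 to 99 UMIs or in the peak (edgeR adjusted p = 0.0761).

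Of 8 oligodendrocyte precursor markers, 3 were higher outside nuclei and 2 lower, beside 30.4% and 30.6% of all genes tested, with *Olig1*, a transcription factor, at 1.89 and the matrix proteins *Vcan* and *Tnr* at -1.10 and -1.23. The precursor median was 0.17, and 0.37 without library 1 and -0.15 without library 3. Of 12 microglial markers, 8 were higher outside nuclei (6 without library 2), beside 30.4% of all genes, and 4 were not called (median 1.26; peak 1.34), with the complement gene *C1qa* at 2.17 and the fractalkine receptor *Cx3cr1* at -0.59, not called. Without library 3, *Cx3cr1* was 1 of 2 higher in nuclei (edgeR adjusted p = 0.016). Of 15 vascular and meningeal markers, 8 were higher, beside 30.4% of all genes, and 7 not called (median 1.0; peak 1.45). The medians of single libraries were 0.09, 0.52, 1.69, 0.14 and 0.30, and the median of the fit was 0.15 without library 2, where 4 of 11 were higher (5 of 14 without library 5), and -0.04 with all sums thinned to equal totals. Without library 3, 2 were higher in nuclei. *Bsg*, a surface protein of vessels and other cells, was at 2.49. *Abcc9* was not called with all 5 libraries, at -1.23 to -0.45 as single libraries were left out. It was higher in nuclei without library 3 (edgeR adjusted p = 0.00421). *Flt1* was not called either, at -0.50 to 0.47 as single libraries were left out. Of 2 ependymal and choroid markers, *Prlr* was higher in nuclei at -0.89 (not called with barcodes of 10 to 99 UMIs) and *Enkur* was at -0.04, not called. Of 6 blood genes, 5 were higher outside nuclei (median 2.525), with hemoglobin *Hba-a1* at 101, 730.2, 59.1, 137 and 435 CPM in low-UMI barcodes and 68.3, 216, 2.24, 16.6 and 76.8 CPM in nuclei, not called without the block. *Alas2*, of heme synthesis in red cells, was at -0.44, not called, and in the peak it was lower than in nuclei at -1.70 (edgeR adjusted p = 0.00105). Medians of the myelin, precursor, vascular and vesicle lists were each far higher in library 3 than in the other 4.

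Immediate early genes, the first to be transcribed when a cell is stimulated, were higher in low-UMI barcodes for 9 of 13 members, with none lower and 4 not called (median 1.38; peak 12 of 15 higher and 1 lower, median 1.51). *Jund*, an AP-1 transcription factor, had 101, 194, 5741, 65.1 and 141 CPM in low-UMI barcodes and 42.7, 52.7, 978, 12 and 18.9 CPM in nuclei (log2 ratio 2.39; edgeR adjusted p = 0.000337). It was not called without the block, in low-UMI barcodes or in the peak. Library 3 was higher than the other 4 in both sums. Summed over the list, library 3 held 6034 CPM in low-UMI barcodes and 1054 CPM in nuclei, and the others 239 to 355 CPM and 68.3 to 147 CPM. *Jund* alone gave 5741 and 978 CPM of the sums of library 3, so that their height there was that of a single gene. *Egr1* was at 1.94 and *Jun* at 1.38. Without library 3 the median of the list was 1.24. Of 7 histone genes, 4 were higher outside nuclei, led by *H3f3a* at 1.91, and 3 were not called, beside 30.4% of all genes (median 0.68; peak 1.97; 1.18 without library 1). Without any 1 of libraries 2 to 5, 3 of 7 were higher.

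By the rule for naming genes, the 12 with the largest difference toward nuclei were *Eya4*, *Pde4b*, *Cdon*, *Nkain2*, *Pak7*, *Atp10b*, *Prkd1*, *Ankrd44*, *Gab1*, *Mlxip*, *Mob3b* and *Ypel2*, with log2 ratios from -1.83 to -1.68 in low-UMI barcodes and from -3.0 to -2.46 in the peak. *Pde4b*, a cyclic AMP phosphodiesterase, had 192, 154, 70.4, 448 and 210.3 CPM in low-UMI barcodes, 184, 60.6, 31.6, 219 and 71.2 CPM in the peak and 935, 736, 259.8, 1291 and 881 CPM in nuclei. The rule required a call and the same sign in every library, and *Pde4b* was lower outside nuclei in each. Library 3 was lowest and library 4 highest in all 3, and the low-UMI range overlapped that of nuclei (log2 ratio -1.83, SE 0.22; edgeR adjusted p = 0.000266). *Nkain2*, which interacts with the sodium pump, did not overlap, with 545, 383, 192, 1056 and 455 CPM in low-UMI barcodes and 1928, 1577, 1111, 2589.8 and 1891 CPM in nuclei. *Eya4* is a transcriptional coactivator, *Cdon* a Hedgehog co-receptor, *Prkd1* a kinase and *Gab1* a docking protein of growth factor receptors.

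Of 38 long synaptic and adhesion genes tested, with a median span of 1105 kb, 35 were higher in nuclei, none in low-UMI barcodes and 3 were not called (median -1.28; 30.6% of all genes tested were higher in nuclei). Of all genes of 500 kb or more, 86.2% were higher in nuclei, with a median of -1.24. The list was thus near the values of its length class. In the peak 34 were higher in nuclei and 1 outside, with a median of -1.87 beside -1.82 for that class. *Dlg2*, a postsynaptic scaffold, was lowest at -1.66, and the postsynaptic adhesion gene *Nlgn1* had 959, 613, 356, 1471 and 897 CPM in low-UMI barcodes and 1840, 2262, 2036, 2902 and 2976 CPM in nuclei, with no overlap (log2 ratio -1.43; edgeR adjusted p = 0.00211). *Nrxn3* was at -1.27 (edgeR adjusted p = 0.0127), and past 0.05 without library 2 or 5 (0.0514 and 0.0536). *Kcnip4*, a potassium channel subunit, was the exception at 0.49, not called in low-UMI barcodes and higher outside nuclei in the peak (0.88; edgeR adjusted p = 0.0298). Its levels were 139.7, 111, 981, 97.7 and 100.4 CPM in low-UMI barcodes and 81.3, 146, 297, 104 and 137 CPM in nuclei, highest in library 3. General markers of neurons, which include long genes, had 5 of 9 higher in nuclei and 2 higher outside, beside 30.6% and 30.4% of all genes tested. The 2 were *Snap25*, above, and *Rbfox3*, the NeuN antigen, at 1.22, which lost the call with barcodes of 10 to 99 UMIs. Without library 2 or 5, 3 of the 9 were higher in nuclei.

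Transcripts of nuclear RNA-binding and splicing proteins had 6 of 23 higher in nuclei, beside 30.6% of all genes tested, 1 higher outside and 16 not called (median -0.26; peak 7 of 23 in nuclei, none outside). Without library 3, 8 were higher in nuclei and 5 outside (median -0.14), and without any 1 of the other libraries none was higher outside. The splicing factor kinase *Clk4* was lowest at -1.27 and *Tra2a*, a splicing activator, at -0.99, whereas the helicase *Ddx5* was at 0.04, not called. *Luc7l2*, of the U1 complex, had 369, 262, 668, 510.3 and 307 CPM in low-UMI barcodes and 579, 541, 2893, 830 and 660.2 CPM in nuclei, highest in library 3 in both, and the log2 ratio was -0.94, which lost the call without the block. The 1 member higher outside nuclei, *Rbm39* at 0.71, lost the call in several settings, among them the peak (edgeR adjusted p = 0.335). Of the long noncoding RNAs listed, 3 names were in the files and 2 passed the filter. *Snhg11* was higher in nuclei at -1.23 (edgeR adjusted p = 0.0159; 0.0561 without library 2), and *Tug1* was at 0.35, not called.

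The share of UMIs from these lists was followed over classes of UMIs per barcode, with no test. In libraries 2, 4 and 5 ribosomal proteins took 5.47, 2.68 and 4.92% of UMIs at 100 to under 500 UMIs and 1.27, 0.266 and 0.646% in nuclei. In library 3 the share was 1.88% at 10 to 99 UMIs, and 0.465% at 100 to under 500 and 0.221% at 500 to under 1000 UMIs, beside 0.131% in its nuclei. In library 1 it was 3.03% at 100 to under 500 UMIs and 1.06% in nuclei. Long synaptic and adhesion genes went the other way, from 0.508, 1.14 and 0.565% at 100 to under 500 UMIs in libraries 2, 4 and 5 to 2.91, 3.29 and 3.32% in nuclei. In library 3 they had reached 1.37% at 100 to under 500 UMIs and 2.0% at 500 to under 1000. In library 1 Mt- genes went from 3.29% at 10 to 99 UMIs to 5.19% at 100 to under 500 and 5.91% at 500 to under 1000.

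**Figure D4:**
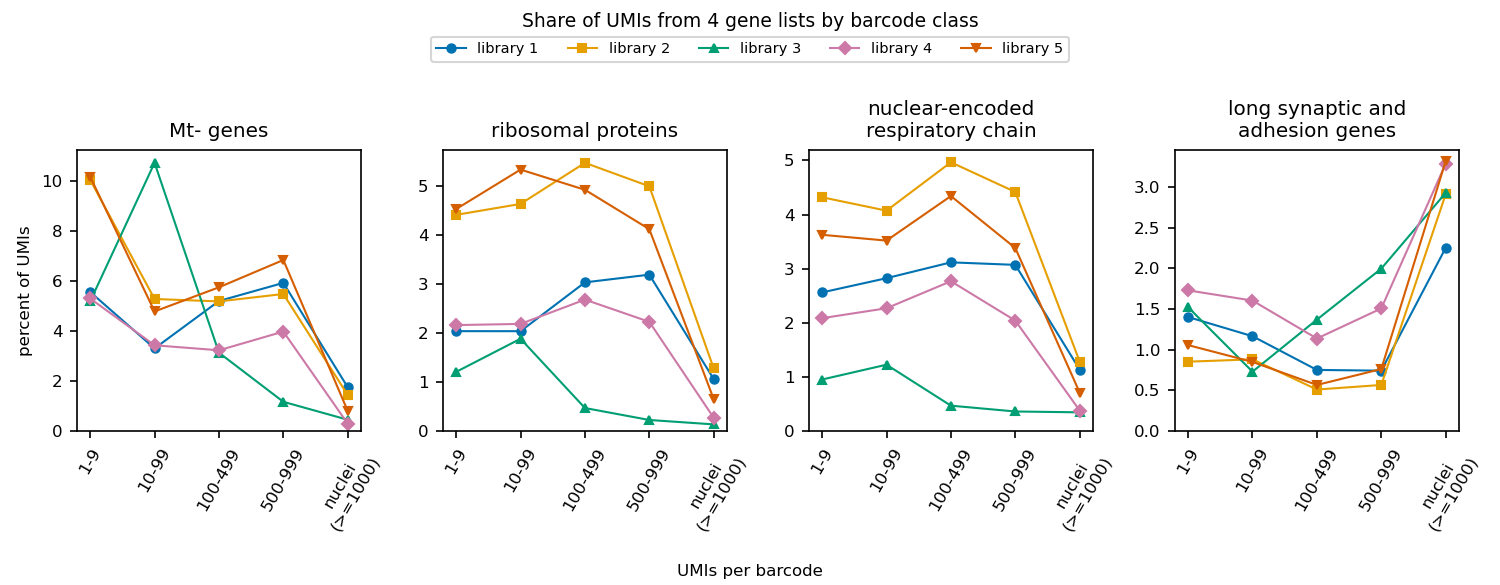
Percent of UMIs from 4 gene lists (y axes, linear from 0) in barcodes of 1 to 9, 10 to 99, 100 to under 500 and 500 to under 1000 UMIs and in nuclei, 1 line per library. Ribosomal proteins fall and long synaptic and adhesion genes rise into the nuclei, and in library 3 both do so from 100 UMIs on, at 0.465% and 1.37%.

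To set the RNA outside nuclei against single populations rather than their sum, the 22084 nuclei were clustered into 33 clusters, kept by number, and each gene's level in low-UMI barcodes was set against its level in every cluster of the same library with at least 50 nuclei (6, 22, 7, 13 and 17 clusters in libraries 1 to 5). Of 12872 genes, 252 (1.96%) were above every cluster in all 5 libraries, and 410 without library 1 and 538 without library 5. Leaving out a library can only keep or raise this count. The 252 held 18 of 76 respiratory chain rows, 9 of 71 ribosomal protein rows, 4 of 22 translation factors, 5 of 18 genes of the iron, antioxidant and ubiquitin list and 1 of 13 immediate early genes. They also held 6 of the 13 Mt- genes. As all clustered nuclei were limited to less than 5% of UMIs from Mt- genes, the counts of Mt- genes here and for the peak are descriptions. With finer clusters (Leiden resolution 2.0) the count was 344, with 30 respiratory chain rows, 8 ribosomal protein rows, 7 translation factors, 9 iron, antioxidant and ubiquitin genes and 1 cytoskeletal gene. The limit of 50 nuclei then left 4, 25, 9, 16 and 20 clusters in libraries 1 to 5, fewer than before in library 1. Genes above every cluster rose from 904 to 1717 in library 5 and fell from 1258 to 923 in library 2. As smaller clusters left the comparison, the higher count does not mean that more populations were exceeded. With clusters of at least 20 nuclei, which can only keep or lower the count of the 33 clusters, it was 201, with no immediate early gene. The level of *Cox4i1* outside nuclei was 1.03, 1.23, 8.65, 2.95 and 1.23 times that of its highest cluster in libraries 1 to 5, and that of *Mt3* 1.30, 1.45, 12.1, 3.26 and 1.26 times. The excess was largest in library 3 for both. With the 33 clusters, none of 14 glycolytic, 22 cytoskeletal and 14 chaperone genes was above every cluster in all 5 libraries, nor any member of the dopamine, GABA and glutamate, neuropeptide, astrocyte, myelin, microglia, vascular or blood lists. For the peak the count was 373 of 15345 genes (2.43%), with 26 of 77 respiratory chain rows, 8 of 73 ribosomal protein rows, 1 of 13 Mt- genes, 5 translation factors and 5 iron, antioxidant and ubiquitin genes among them, and also 2 glycolytic, 1 cytoskeletal, 2 neuropeptide, 2 myelin, 1 precursor, 1 astrocyte and 1 vascular gene.

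Clusters close to the profile outside nuclei were found among the nuclei. Cluster 3, with 1294 of its 1395 nuclei in library 2 at a median of 1242.5 UMIs, held 34995 CPM of ribosomal protein transcripts and 7529 CPM of long synaptic and adhesion genes. Library 2 had 44240 and 8529 CPM of them in low-UMI barcodes and 12734 and 29124 CPM in all its nuclei. Its leading genes included *Slc6a3*, *Th*, *Chgb* and *Cck*. Cluster 8, with 977 of 979 nuclei in library 1 at a median of 1274 UMIs, held 25898 and 10022 CPM of the same lists, and its leading genes included *Eef1a1* and *Rpl32*. It took 977 of the 1813 nuclei of library 1. Both clusters were in the comparison with every cluster above, cluster 3 in libraries 2 and 5 (66 nuclei). The 252 genes and the lists without a member thus depend on them. By library, 2466, 1258, 3279, 2651 and 904 genes were above every cluster. Clusters 6, 15, 24, 25, 29, 30 and 31 lay at 99.5 to 100% in library 3. With nuclei of at least 2000 UMIs the 2-fold counts were 2971 and 2258, beside 2895 and 2236.

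Some RNA in the low-UMI barcodes of libraries 4 and 5 was at under 10 CPM in nuclei and at the empty-droplet peak. *Ins2*, one of the insulin genes of the pancreatic beta cell, had 8, 0, 3, 521 and 4880 UMIs in low-UMI barcodes of libraries 1 to 5, 1, 0, 0, 13 and 112 at the peak and 0, 2, 0, 2 and 2 in nuclei. These were 2.74, 0, 1.47, 566 and 4581 CPM in low-UMI barcodes, where the 0 of library 2 allows up to 1.665 CPM by counting error. Libraries 4 and 5 stood apart from the other 3. *Gcg*, the glucagon gene of alpha cells, from which GLP-1 is also made, had 0, 0, 0, 71 and 1009 UMIs in low-UMI barcodes, and *Ins1* had 9, 0, 2, 129 and 768. *Iapp*, *Pyy* and *Ppy*, other islet hormones, had 40, 54 and 35 UMIs in library 5 and 3, 2 and 1 in library 4. The neutrophil genes *S100a9* and *Elane* had 0, 5, 0, 31 and 31 and 0, 0, 0, 7 and 21 UMIs in libraries 1 to 5. These genes were listed after their values had been seen, and none passed the filter of the fit.

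In library 5, 2726 of 814118 low-UMI barcodes (0.335%) held an *Ins2* UMI, and in library 4, 500 of 726576 (0.0688%). In library 5, 453 of them had 10 to 99 UMIs, and *Ins2* made up 1564 of their 6677 UMIs (23.4%), with up to 29 *Ins2* UMIs in 1 barcode. As these barcodes were taken for holding *Ins2*, at least 453 of the 1564 UMIs follow from that choice. In library 4 no such barcode had 10 or more UMIs. The 2 libraries shared 128 *Ins2* barcodes, 25.6% of those of library 4 and 4.70% of those of library 5. Of all low-UMI barcodes of library 4, 20.65% were also low-UMI barcodes of library 5, with or without *Ins2*. That share is no background for the 25.6%, as only 0.335% of the low-UMI barcodes of library 5 held *Ins2*. *Mt2A*, above, moved with them, and *Rack1*, a ribosomal scaffold singled out after its values were seen, had 107 CPM in low-UMI barcodes of library 5, 0.157 at the peak and 0 in nuclei. Whether these UMIs came from the tissue of these rats or from other samples was not tested, and their CPM values cannot be read as levels in the VTA.

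**Figure D5:**
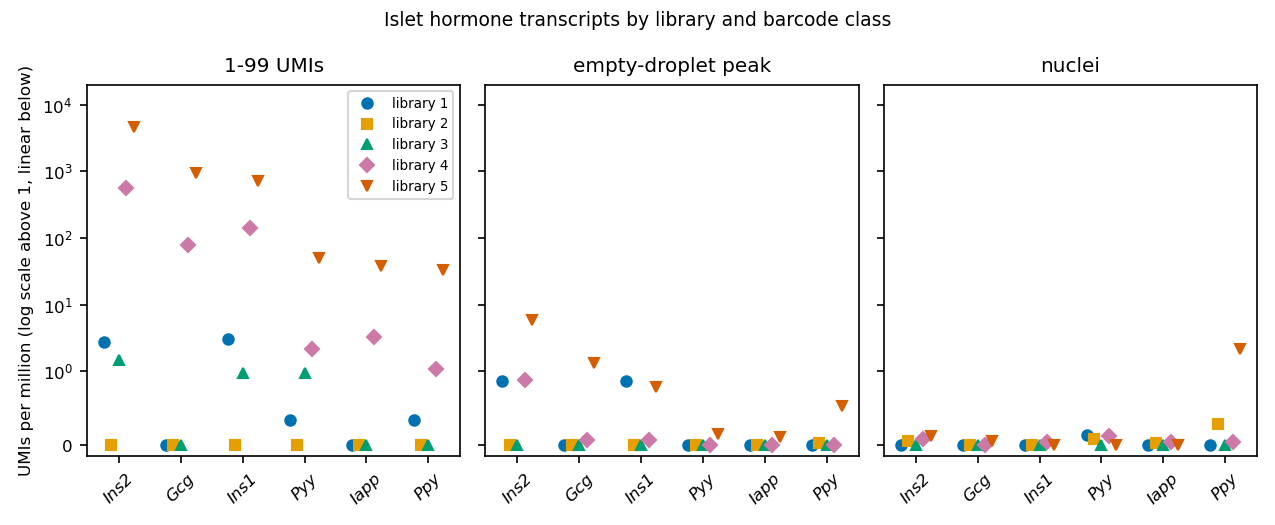
CPM (log scale above 1, linear below) of 6 islet hormone genes in low-UMI barcodes, the empty-droplet peak and nuclei, 1 symbol per library. Libraries 4 and 5 are above the other 3 for *Ins2*, *Gcg* and *Ins1* in low-UMI barcodes, with *Ins2* at 566 and 4581, and no gene exceeds 10 at the peak or in nuclei.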

How the data were processed

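Nuclei from 5 rat VTA samples were profiled with 10x 3′ v3.1 chemistry. The authors deposited, for each library, the unfiltered table of UMI counts per gene and barcode, made with Cell Ranger 8.0.1 per the submitters' processing notes. The genome build is not given in the sources used here. The correction for ambient RNA, the filters and the doublet calls that the study's methods describe came after these files.

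Counts were summed per library over each barcode class. All 32883 features were read. Sums were compared with edgeR 4.0.16 (quasi-likelihood test, TMM factors, filterByExpr, library as block). A call needed a Benjamini-Hochberg adjusted p under 0.05, and p-values measure the spread between these 5 libraries, each from 1 rat. The block follows from the design, as both sums of a pair come from the same library, and deviations of paired sums correlated at 0.352, 0.685, 0.545, 0.651 and 0.505 over 12872 genes. The fit and DESeq2 1.42.0, an alternative, were tested on simulated data. Nuclei were clustered with scanpy 1.11.5 (2000 variable genes, 20 components, 20 neighbours, Leiden). A limit that a count of 0 allows is 3 counts, and covers counting error only.

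Named genes were the 12 with the largest difference in each direction among called genes of the same sign in every library, with at least 50 CPM in the higher sum, no Mt- gene and no name of the ENSRNOG, LOC, RGD, AABR, AC or NEWGENE kind. For each list they were also the 3 most abundant members, the highest and lowest by ratio and those called against the majority, and *Glp1r*, *Gad1* and *Th*. Some genes that this rule names are not reported here. The gene lists and members were chosen with earlier results of these data known. Alternatives changed the barcode classes, filters, scaling, test, depth and libraries. The empty-droplet peak, all settings that use it, and the lists of islet, granulocyte and AY172581 genes were chosen after seeing the data.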

Additional observations from a re-analysis of the deposited data

Results flagged for a closer look

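Of 169 values tested over the 5 libraries (log2 ratios of named genes, medians of lists, and levels), 13 had 1 library far from the other 4, by a gap of more than 0.71 of the range. Chance flags about 1 in 20 groups. For medians of lists, library 3 was the one apart in each case. Its median log2 ratio of low-UMI barcodes over nuclei was 1.53 for synaptic vesicle genes (0.83 to 0.94 in the others), 2.21 for myelin genes (0.15 to 0.69), 1.63 for precursor genes (-0.41 to 0.17) and 1.69 for vascular genes (0.09 to 0.52). For the 2 ependymal genes it was -1.97 (-0.48 to 0.08), and for *Gad1* and *Th* together 2.11 (1.29 to 1.45).

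Among genes, library 3 was apart for *Cdon* at -2.78 (-1.66 to -1.25 in the others), *Luc7l2* at -1.86 (-0.80 to -0.67) and *Stmn4* at 2.47 (0.25 to 0.83). It had the opposite sign to the other 4 for *Selenop*, at 2.43 (-1.27 to -0.25), and for *Slc1a2*, at 1.96 (-1.05 to -0.55). Library 4 was apart for *Ctss*, a lysosomal protease of microglia, at -0.80 (0.09 to 0.32). *Ins2* stood at 4581 CPM in low-UMI barcodes of library 5 and at 0 to 566 CPM in the others.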

How the results depend on the processing

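Without the replicate block, 3133 genes were higher in low-UMI barcodes and 3021 in nuclei (2629 and 2092 at 2-fold). Leaving out 1 library gave 3315 to 4380 and 3008 to 4336 genes, 2749 to 3059 and 1883 to 2262 at 2-fold, a difference in Mt- share of 6.145 to 7.924 percentage points, and 267 to 538 genes above every cluster (410 without library 1, 538 without library 5). The count above every cluster cannot fall when a library is left out. Barcodes of 10 to 99 UMIs gave 2481 genes higher outside nuclei. They held 99319, 56744 and 54103 UMIs in libraries 2, 4 and 5, beside 1802227, 921088 and 1065281 at 1 to 99 UMIs. Calls lost with that class were thus lost at a lower depth in these libraries. Genes 2-fold higher in nuclei numbered 1298 with barcodes of 1 to 9 UMIs, 4198 with a fixed band of barcode ranks and 4421 with the empty-droplet peak. With the peak they numbered 4139 without the limit on Mt- genes, 4445 with nuclei of 2000 or more UMIs, 4180 without the block, 4683 in DESeq2 and 5453 with library totals. Genes higher in nuclei at any size were 5934 with the peak in DESeq2 and 6292 with library totals. The vascular median was -0.03585 when sums were thinned to equal totals, beside 1.0 with the full sums of low-UMI barcodes and nuclei of all 5 libraries. It was 0.15 without library 2. The causes of these changes were not tested. Over genes and alternatives, 3153 values kept direction and call, 100 lost the call, 59 gained it and none reversed. Of list medians, 612 kept their value within the spread between libraries and 58 moved. *Glp1r* did not pass the filter on low counts for low-UMI barcodes, so that no ratio was fitted there.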
